A study of Homo sapiens with 8 samples.

Results

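The 38 genes described here encode proteins that copy DNA or drive cells from G1 into S phase. They were chosen by name, with no measured value in the rule but with earlier results of these data known. They were matched by symbol to the 63677 genes of the deposited count tables. All 38 were found; RFC2 has 2 identifiers, and the one with most reads was used. The genes fall into 7 groups by role: cyclin E and CDC25A, the E2F transcription factors, origin licensing, origin firing and the CMG helicase, polymerases with their clamp and clamp loader, Okazaki fragment maturation, and chromatin assembly with the fork checkpoint. Total RNA was sequenced from DND-41 and MOLT-4, which are established human T-cell acute lymphoblastic leukaemia lines. MOLT-4 cells received 100 nM ACBI-1 or the solvent DMSO for 8 h, and DND-41 cells received the same. The labels name no genetic change in either line. ACBI-1 is a degrader that links the bromodomains of SMARCA2, SMARCA4 and PBRM1, subunits of the BAF chromatin remodelling complexes, to the VHL ubiquitin ligase. There were 4 groups of 2 libraries, and the labels do not say whether libraries of a group came from separate cultures. The spread behind each p-value is that between libraries of a group, and it may be purely technical.

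A cell enters S phase when cyclin E with its kinase, helped by the phosphatase CDC25A, drives the inactivation of RB, which frees the activating E2F factors to turn on replication genes. ORC, CDC6 and CDT1 load the ring of MCM2 to MCM7 onto origins in G1, which licenses them. The kinase CDC7 then fires the origins by helping CDC45 and the GINS proteins to bind the ring and form the active CMG helicase, while polymerase alpha with its primase, polymerases delta and epsilon, PCNA and RFC copy the strands behind it.

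Library totals ran from 19860759 to 20239888 counts, at which 3 counts equal 0.137 to 0.165 CPM, in which each count is scaled by the effective size of its library. Member levels ran from 8.78 to 846 CPM, and the lowest count of a member in any library was 185. All 38 passed the filter on low counts in both lines. Replicate libraries had a Pearson r of log2 CPM of 0.9965 to 0.9981. Of 12 T-cell markers, 11 were at 1 CPM or more in MOLT-4 under either treatment, and in DND-41 9 were with ACBI-1 and 10 with DMSO; TRBC1 was at 0 counts in every library, and PTCRA was at 0 in DND-41 with ACBI-1. Of 5 B-lineage markers, 1 was at 1 CPM or more in MOLT-4 and 2 in DND-41, with MS4A1 and PAX5 at 0 in every library. Their summed level was 4.13 to 4.68 CPM with ACBI-1 and 7.4 to 8.03 CPM with DMSO in MOLT-4, and 947 to 994 CPM with ACBI-1 and 1587 to 1602 CPM with DMSO in DND-41, most of it CD79A. The sum of 6 stromal or epithelial markers was 179 to 181 CPM with ACBI-1 and 322 to 393 CPM with DMSO in MOLT-4, and 122 to 126 CPM with ACBI-1 and 281 to 290 CPM with DMSO in DND-41, with EPCAM at 0 in every library. Those sums rest on few genes. Only 1 of the 6 was at 1 CPM or more throughout MOLT-4 with ACBI-1 and DND-41 under either treatment, and 3 were in MOLT-4 with DMSO. Among these the collagen gene COL1A1 differed between MOLT-4 libraries, at 0 and 11.4 CPM in ACBI-1 replicates 1 and 2 and at 2.2 and 55.4 CPM in DMSO replicates 1 and 2. The sum of 5 myeloid markers was at most 0.696 CPM and that of 5 erythroid markers at most 0.0551 CPM. The part of the markers that moved with treatment in the results on the members was not tested.

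Many of these genes are textbook E2F targets, so their promoters were read for E2F words. RefSeq's table of start regions (GRCh38.p14, 250 bases before the start to 50 after it) held 33 of the 38 members in 41 windows; CCNE2, E2F8, GINS4, MCM4 and MCM5 had no entry. The words searched on both strands were TTTCCCGC, TTTCGCGC, TTTGGCGC and TTTGCCGC. At least 1 of them occurred for 20 of the 33 members (60.6%) and in 20 of their 41 windows (48.8%), against 3.31% of all 35116 windows and 3.99% of all 27305 genes in the table. The 28 matches, some of which overlap, lay between 187 bases before the start and 7 after it, with a median of 38.5 bases before it. A CCAAT word, which is bound by NF-Y, was held by 20 of the 33 members (60.6%) and 39.7% of all genes. TATAAA was held by 4.88% of the members' windows (2 members, CDC45 and GINS3) and 11.5% of all windows. TTTGAA, the cell cycle homology region typical of G2/M promoters, was held by 1 of the 33 (3.03%) and 18.2% of all genes; this was E2F3. A match is a description of letters, not evidence of binding.

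The licensing genes are the role group with most matches, and the match nearest the start of each of the 6 that hold one is shown with 10 bases on either side, 5′ to 3′ on the gene's strand, with the E2F word on either strand in capitals. These stretches were chosen after the values were seen.
CDC6 (chr17:40287876-40287903, plus strand): gccattcggaTTTGGCGCgagcgcggct
CDT1 (chr16:88803744-88803771, plus strand): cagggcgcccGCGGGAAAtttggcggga
MCM2 (chr3:127598403-127598430, plus strand): gtgaaccactTTTCGCGCgaaacctggt
MCM3 (chr6:52284729-52284756, minus strand): gttcggaagtTTTCGCGCcggggtggag
MCM6 (chr2:135876512-135876539, minus strand): gtcaggtttgGCGCGAAAtctccagctc
MCM7 (chr7:100101389-100101416, minus strand): gggggcgacgTTTCGCGCcaatttcggt
The words sit 35 bases before the start in CDT1, 4 in MCM3, 86 in MCM6 and 9 in MCM7, and 7 and 2 bases after it in CDC6 and MCM2.

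Whole windows are shown for the members with the largest called changes in each direction that the table holds: CDC7 among the rises in MOLT-4, LIG1 among the rises in DND-41, POLE among the falls in MOLT-4 and POLD1 among the falls in DND-41. E2F words on either strand are in capitals. CDC7, shown by the first of its 2 windows with a match, holds 2 of them, 1 on each strand. LIG1 and POLE hold 1 each, and neither of the POLD1 windows, of which the first is shown, holds one.
CDC7 (chr1:91500862-91501161, plus strand): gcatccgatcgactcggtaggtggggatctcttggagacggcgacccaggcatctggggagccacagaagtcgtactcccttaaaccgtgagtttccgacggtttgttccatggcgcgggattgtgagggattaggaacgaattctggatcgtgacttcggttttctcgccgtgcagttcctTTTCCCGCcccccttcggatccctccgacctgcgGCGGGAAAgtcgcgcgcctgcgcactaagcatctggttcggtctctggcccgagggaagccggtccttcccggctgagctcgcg
LIG1 (chr19:48170295-48170594, minus strand): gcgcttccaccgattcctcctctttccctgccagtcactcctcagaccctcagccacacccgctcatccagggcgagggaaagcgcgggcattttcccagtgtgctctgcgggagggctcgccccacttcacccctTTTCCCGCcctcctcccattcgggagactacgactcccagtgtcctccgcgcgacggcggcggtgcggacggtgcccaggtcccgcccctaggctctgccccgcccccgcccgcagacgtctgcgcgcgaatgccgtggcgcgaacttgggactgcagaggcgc
POLE (chr12:132687293-132687592, minus strand): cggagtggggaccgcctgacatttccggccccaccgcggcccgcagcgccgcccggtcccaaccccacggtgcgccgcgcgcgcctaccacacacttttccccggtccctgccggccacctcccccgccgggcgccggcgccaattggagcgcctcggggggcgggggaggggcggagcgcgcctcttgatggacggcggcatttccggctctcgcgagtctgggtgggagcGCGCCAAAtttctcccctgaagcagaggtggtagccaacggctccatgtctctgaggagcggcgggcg
POLD1 (chr19:50384073-50384372, plus strand): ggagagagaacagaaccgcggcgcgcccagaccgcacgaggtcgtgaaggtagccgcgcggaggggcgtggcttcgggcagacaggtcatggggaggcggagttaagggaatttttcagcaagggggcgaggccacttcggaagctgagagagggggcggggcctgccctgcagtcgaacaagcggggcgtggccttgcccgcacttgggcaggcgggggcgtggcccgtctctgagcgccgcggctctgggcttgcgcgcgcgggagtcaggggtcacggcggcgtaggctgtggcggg
By call in MOLT-4, an E2F word was held by 14 of 19 members with an entry that rose, by POLE, the 1 with an entry that fell, and by 5 of 13 that were not called. By call in DND-41, it was held by 5 of 10 that rose, 0 of 2 that fell and 15 of 21 that were not called.

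With ACBI-1, more replication and G1/S transcripts were higher than lower in both lines, by small amounts. In MOLT-4, 23 of the 38 members rose (60.5%, against 20.7% of all 14239 genes tested) and 2 fell, E2F8 and POLE (5.26%, against 24.4%). In DND-41, 14 rose (36.8%, against 20.0% of 14008 genes) and 3 fell, E2F8, ORC1 and POLD1 (7.89%, against 23.2%). In either direction 25 members were called in MOLT-4, where 45.1% of all genes were, and 17 in DND-41, where 43.2% were. The calls are edgeR's quasi-likelihood test with Benjamini-Hochberg adjustment over all genes tested and a threshold of 0.05. The median log2 fold change of the members was 0.17 in MOLT-4 and 0.12 in DND-41, and the median of all genes tested was 0.00 and 0.01. No member reached a 2-fold change in either line; the largest absolute log2 fold changes were 0.77 in MOLT-4 and 0.46 in DND-41, while 1481 and 1176 of all genes were called at 2-fold or more. In bulk RNA, a larger share of cells in 1 phase of the cycle and more RNA per cell cannot be told apart.

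The CPM values of the single libraries leaned the same way. They carry nearly the same scaling as the calls, so they are not separate support. Before scaling, the MOLT-4 counts of some members overlapped. Those of MCM5 were 11213 and 10266 with ACBI-1, against 9575 and 10590 with DMSO. The counts of members that follow are by CPM. Both ACBI-1 libraries lay above both DMSO libraries for 32 members in MOLT-4 (84.2%, against 36.0% of all genes) and for 22 in DND-41 (57.9%, against 33.4%). They lay below both for 3 members in MOLT-4 (7.89%, against 35.8%) and for 4 in DND-41 (10.5%, against 36.2%). The libraries overlapped for the other 3 and 12. Across lines, 11 members rose in both by edgeR: CCNE2, CDC25A, E2F3, MCM4, MCM5, CDC7, MCM10, CDC45, GINS4, RFC4 and LIG1. E2F8 fell in both. Called in neither line were 8: CCNE1, ORC6, MCM2, MCM7, PCNA, RFC2, CHAF1A and CLSPN. The shares of all genes called in both lines or in neither were not counted, so these numbers of members have no background beside them.

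These counts depend on scale, on single libraries and on the test. Scaling by library size alone set the median of all genes at -0.08 in MOLT-4 and 0.04 in DND-41. Then 9 members rose and 2 fell in MOLT-4, and 14 rose and 3 fell in DND-41. Of all genes, 1781 rose and 3922 fell in MOLT-4 with that scaling, and 2831 rose and 2865 fell in DND-41. The MOLT-4 member rises no longer called were those of CDC25A, E2F1, CDC6, CDT1, MCM3, MCM4, MCM5, MCM6, CDC45, GINS2, GINS3, RFC3, FEN1 and LIG1. In DND-41, fewer members rose without DMSO replicate 1 or without DMSO replicate 2, and fewer of all genes rose as well. Leaving out a DND-41 ACBI-1 library instead added calls: without replicate 2, 18 members rose, among them CDC6, MCM2, MCM3, RFC2 and FEN1, and without replicate 1, 15 rose, among them CDT1 and CLSPN, and 5 fell, among them MCM7 and PCNA. Without both MOLT-4 replicate 2 libraries, in which COL1A1 was highest, 11 members rose and 2 fell in that line; the rises no longer called were those of CDC25A, E2F1, CDC6, CDT1, MCM3, MCM5, MCM6, CDC45, GINS1, GINS3, RFC3 and FEN1. DESeq2, another test, called 18 members higher in MOLT-4, leaving out CDC25A, CDC6, CDT1, RFC3 and FEN1. In DND-41 it called 9 higher, leaving out CCNE2, CDC25A, CDC45, RFC5 and PRIM1. By DESeq2, CCNE2, CDC25A and CDC45 thus did not rise in both lines. Of all genes, DESeq2 called 1962 higher in MOLT-4 and 1871 in DND-41. The calls that held under every alternative were the rises of CCNE2, CDC7, CHAF1B, E2F2, E2F3, GINS4, MCM10 and RFC4 and the falls of E2F8 and POLE in MOLT-4, and the rises of CDC7, E2F3, LIG1 and MCM5 and the falls of E2F8 and POLD1 in DND-41.

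**Figure D1:**
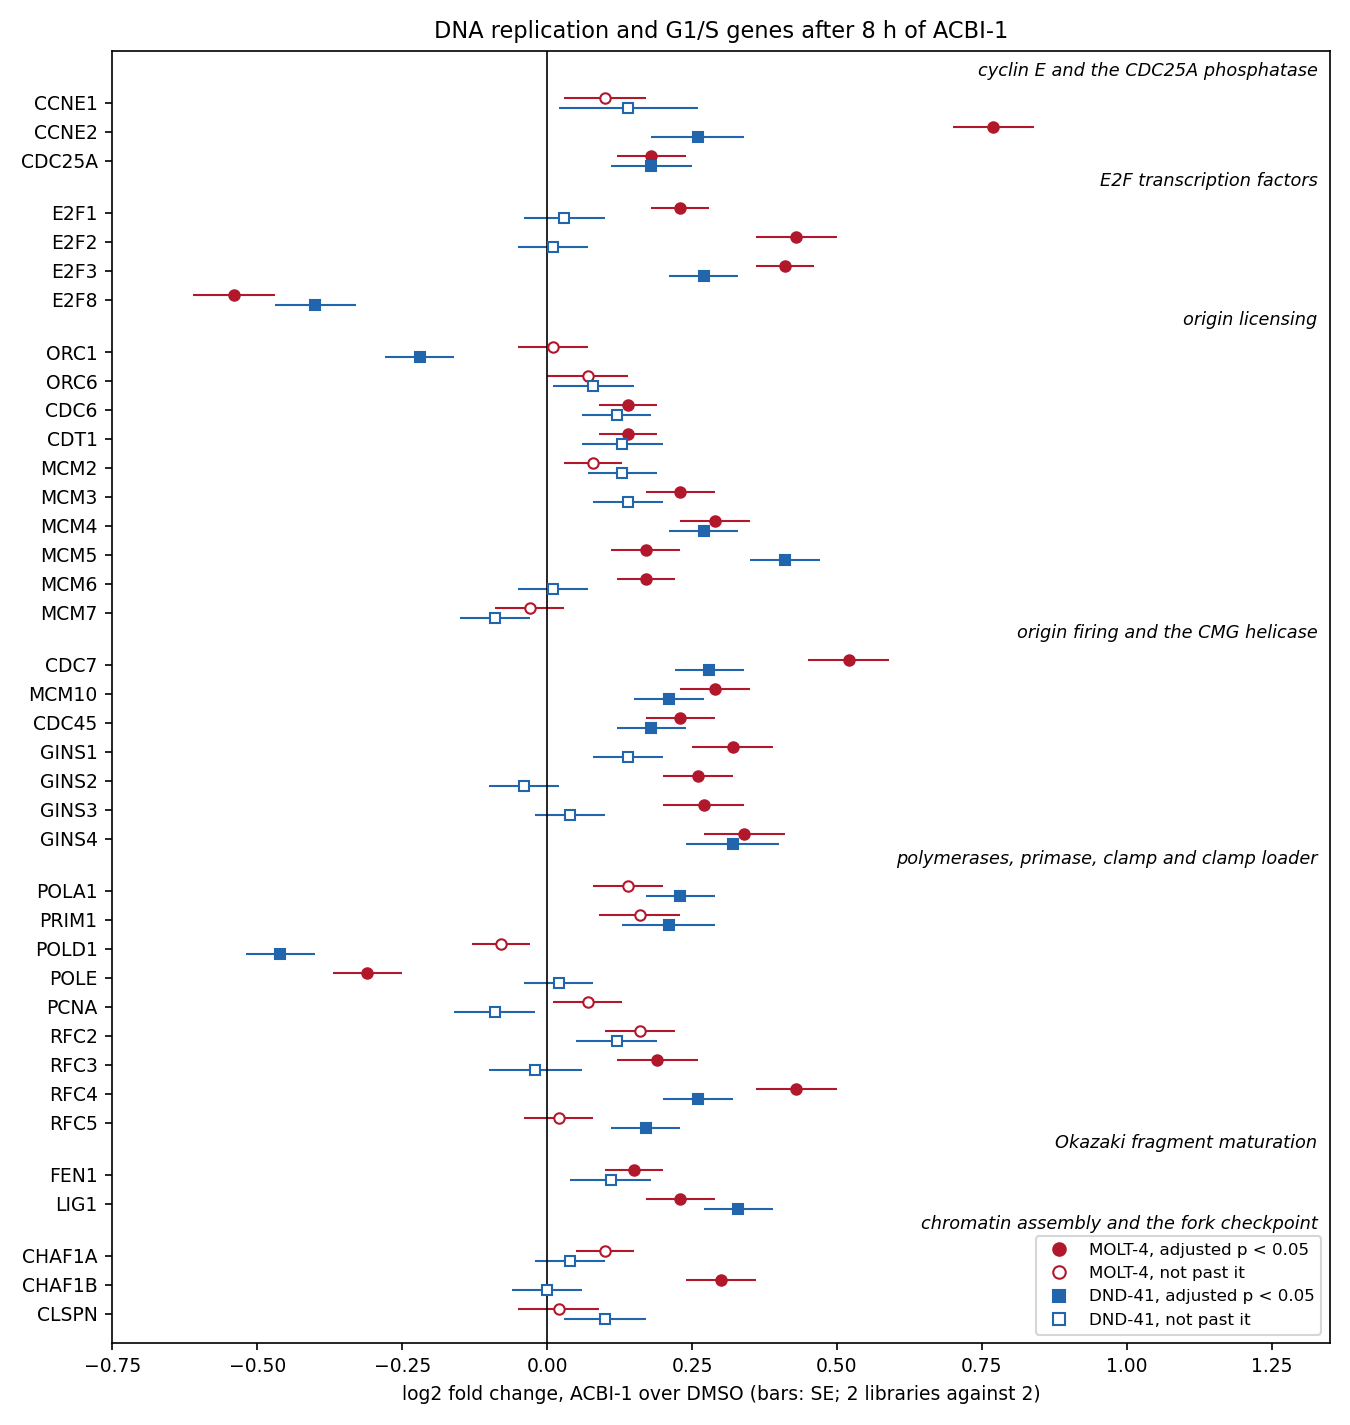
Log2 fold change (ACBI-1 over DMSO, horizontal axis) of the 38 members, grouped by role, in MOLT-4 (red circles) and DND-41 (blue squares), with bars of 1 SE from 2 libraries against 2; filled symbols passed an adjusted p of 0.05 and open ones did not. Most symbols lie right of 0, with 23 filled to the right in MOLT-4 and 14 in DND-41, while E2F8 lies left of 0 in both lines.

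Cyclin E binds CDK2, and CDC25A removes the phosphates that hold that kinase inactive. CCNE2, the second cyclin E gene, had the largest rise of all members in MOLT-4. It was at 37.9 and 40 CPM in MOLT-4 with ACBI-1, against 22.6 and 22.9 CPM with DMSO. In DND-41 it was at 27.4 and 28.6 CPM with ACBI-1, against 23.4 and 23.9 CPM with DMSO. The libraries did not overlap in either line, and the gap was wider in MOLT-4. The log2 fold change was 0.77 ± 0.07 (SE, 2 libraries against 2, edgeR adjusted p = 4.62e-08) in MOLT-4 and 0.26 ± 0.08 (edgeR adjusted p = 0.0157) in DND-41. The DND-41 call ended without DMSO replicate 1 (0.24, edgeR adjusted p = 0.134) and without DMSO replicate 2 (0.27, edgeR adjusted p = 0.0761). Its counts could include reads of INTS8 and NDUFAF6 on the opposite strand, with 9790 and 3320 counts over the 8 libraries against 4519 for CCNE2, since the strand setting of the counting is not given.

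CCNE1, the other cyclin E gene, was not called, at a log2 fold change of 0.10 ± 0.07 (edgeR adjusted p = 0.271) in MOLT-4 and 0.14 ± 0.12 (edgeR adjusted p = 0.359) in DND-41, although its ACBI-1 libraries lay above its DMSO libraries in both. CDC25A rose by the same log2 value in each line, 0.18 ± 0.06 in MOLT-4 and 0.18 ± 0.07 in DND-41. Both CDC25A calls were lost with 1 library left out: in MOLT-4 without ACBI-1 replicate 1 (0.11, edgeR adjusted p = 0.339), and in DND-41 without DMSO replicate 1 (0.12, edgeR adjusted p = 0.438) or DMSO replicate 2 (0.24, edgeR adjusted p = 0.0583).

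The E2F factors did not move as 1 group. E2F1, E2F2 and E2F3 activate S-phase genes, while E2F8 is an atypical member that represses them. In MOLT-4 the 3 activators rose and E2F8 fell; in DND-41 E2F3 rose and E2F8 fell. E2F8 was at 41.2 and 38.1 CPM in MOLT-4 with ACBI-1, against 56.9 and 58.1 CPM with DMSO. Its DND-41 level was 48.8 and 46.7 CPM with ACBI-1, against 61.8 and 65.5 CPM with DMSO. Every ACBI-1 library was below every DMSO library of its line. The log2 fold change of E2F8 was -0.54 ± 0.07 (edgeR adjusted p = 3.20e-06) in MOLT-4 and -0.40 ± 0.07 (edgeR adjusted p = 0.000192) in DND-41.

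E2F2 differed between lines. It was at 107 and 92.6 CPM in MOLT-4 with ACBI-1, against 75.7 and 72 CPM with DMSO. DND-41 cells had 138 and 149 CPM with ACBI-1, against 140 and 148 CPM with DMSO. The MOLT-4 libraries were separate by treatment, with the ACBI-1 pair far apart, and the DND-41 libraries overlapped. Its log2 fold change was 0.43 ± 0.07 (edgeR adjusted p = 2.18e-05) in MOLT-4 and 0.01 ± 0.06 (edgeR adjusted p = 0.927) in DND-41. E2F3 rose by 0.41 ± 0.05 in MOLT-4 and 0.27 ± 0.06 in DND-41 on the log2 scale. E2F1 rose by 0.23 ± 0.05 in MOLT-4, a call that ended without both replicate 2 libraries (0.20, edgeR adjusted p = 0.204), and was at 0.03 ± 0.07 (edgeR adjusted p = 0.758) in DND-41.

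Of the 10 licensing genes, 6 rose in MOLT-4 (60.0%, against 20.7% of all genes), namely CDC6, CDT1, MCM3, MCM4, MCM5 and MCM6. In DND-41 MCM4 and MCM5 rose, a share of 20.0% that equals the 20.0% of all genes, and ORC1 fell. The median log2 fold change of the group was 0.14 in MOLT-4 and 0.12 in DND-41. MCM5, a subunit of the ring, had the largest rise of all members in DND-41. It was at 593 and 565 CPM in MOLT-4 with ACBI-1, against 503 and 526 CPM with DMSO. The DND-41 values were 681 and 647 CPM with ACBI-1, against 503 and 503 CPM with DMSO. No ACBI-1 library overlapped a DMSO library of its line. Log2 fold changes were 0.17 ± 0.06 (edgeR adjusted p = 0.0286) in MOLT-4 and 0.41 ± 0.06 (edgeR adjusted p = 6.11e-05) in DND-41. The MOLT-4 call ended without ACBI-1 replicate 1 (0.13, edgeR adjusted p = 0.227) and without DMSO replicate 1 (0.14, edgeR adjusted p = 0.0893).

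ORC1, the largest subunit of the origin recognition complex, was at 55.2 and 54.5 CPM in MOLT-4 with ACBI-1, against 54.9 and 53.9 CPM with DMSO. In DND-41 it was at 65.1 and 63.2 CPM with ACBI-1, against 75 and 75.6 CPM with DMSO. The libraries overlapped in MOLT-4 and were apart in DND-41. Its log2 fold change was 0.01 ± 0.06 (edgeR adjusted p = 0.935) in MOLT-4 and -0.22 ± 0.06 (edgeR adjusted p = 0.011) in DND-41. The fall was not called without DMSO replicate 1 (-0.23, edgeR adjusted p = 0.0809) or DMSO replicate 2 (-0.21, edgeR adjusted p = 0.107).

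The 6 subunits of the ring ranged on the log2 scale from -0.03 (MCM7) to 0.29 (MCM4) in MOLT-4 and from -0.09 (MCM7) to 0.41 (MCM5) in DND-41. MCM4 rose by 0.29 ± 0.06 in MOLT-4 and 0.27 ± 0.06 in DND-41, the second of which was not called without DMSO replicate 1 (0.25, edgeR adjusted p = 0.0716). MCM3 rose by 0.23 ± 0.06 in MOLT-4 and was at 0.14 ± 0.06 (edgeR adjusted p = 0.0836) in DND-41. MCM6 rose by 0.17 ± 0.05 in MOLT-4, a call lost without ACBI-1 replicate 2 (0.15, edgeR adjusted p = 0.0941), and was at 0.01 ± 0.06 (edgeR adjusted p = 0.897) in DND-41. MCM7, the subunit with the highest level per length, was not called in either line (-0.03 ± 0.06, edgeR adjusted p = 0.781 in MOLT-4, and -0.09 ± 0.06, edgeR adjusted p = 0.253 in DND-41). Without ACBI-1 replicate 1 it was called lower in DND-41 (-0.15, edgeR adjusted p = 0.0148). MCM2 was at 0.08 ± 0.05 (edgeR adjusted p = 0.246) in MOLT-4 and 0.13 ± 0.06 (edgeR adjusted p = 0.0783) in DND-41.

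The loading factors CDC6 and CDT1 had the 2 smallest MOLT-4 rises, each at 0.14 ± 0.05 (edgeR adjusted p = 0.0424 and 0.0365). CDC6 was not called without ACBI-1 replicate 1 (0.11, edgeR adjusted p = 0.268), ACBI-1 replicate 2 (0.16, edgeR adjusted p = 0.0621) or DMSO replicate 2 (0.10, edgeR adjusted p = 0.211). CDT1 was not called without ACBI-1 replicate 1 (0.11, edgeR adjusted p = 0.25) or DMSO replicate 2 (0.11, edgeR adjusted p = 0.147). In DND-41 their values were 0.12 ± 0.06 (edgeR adjusted p = 0.142) and 0.13 ± 0.07 (edgeR adjusted p = 0.137). ORC6 was at 0.07 ± 0.07 in MOLT-4 (edgeR adjusted p = 0.471) and 0.08 ± 0.07 in DND-41 (edgeR adjusted p = 0.343).

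**Figure D2:**
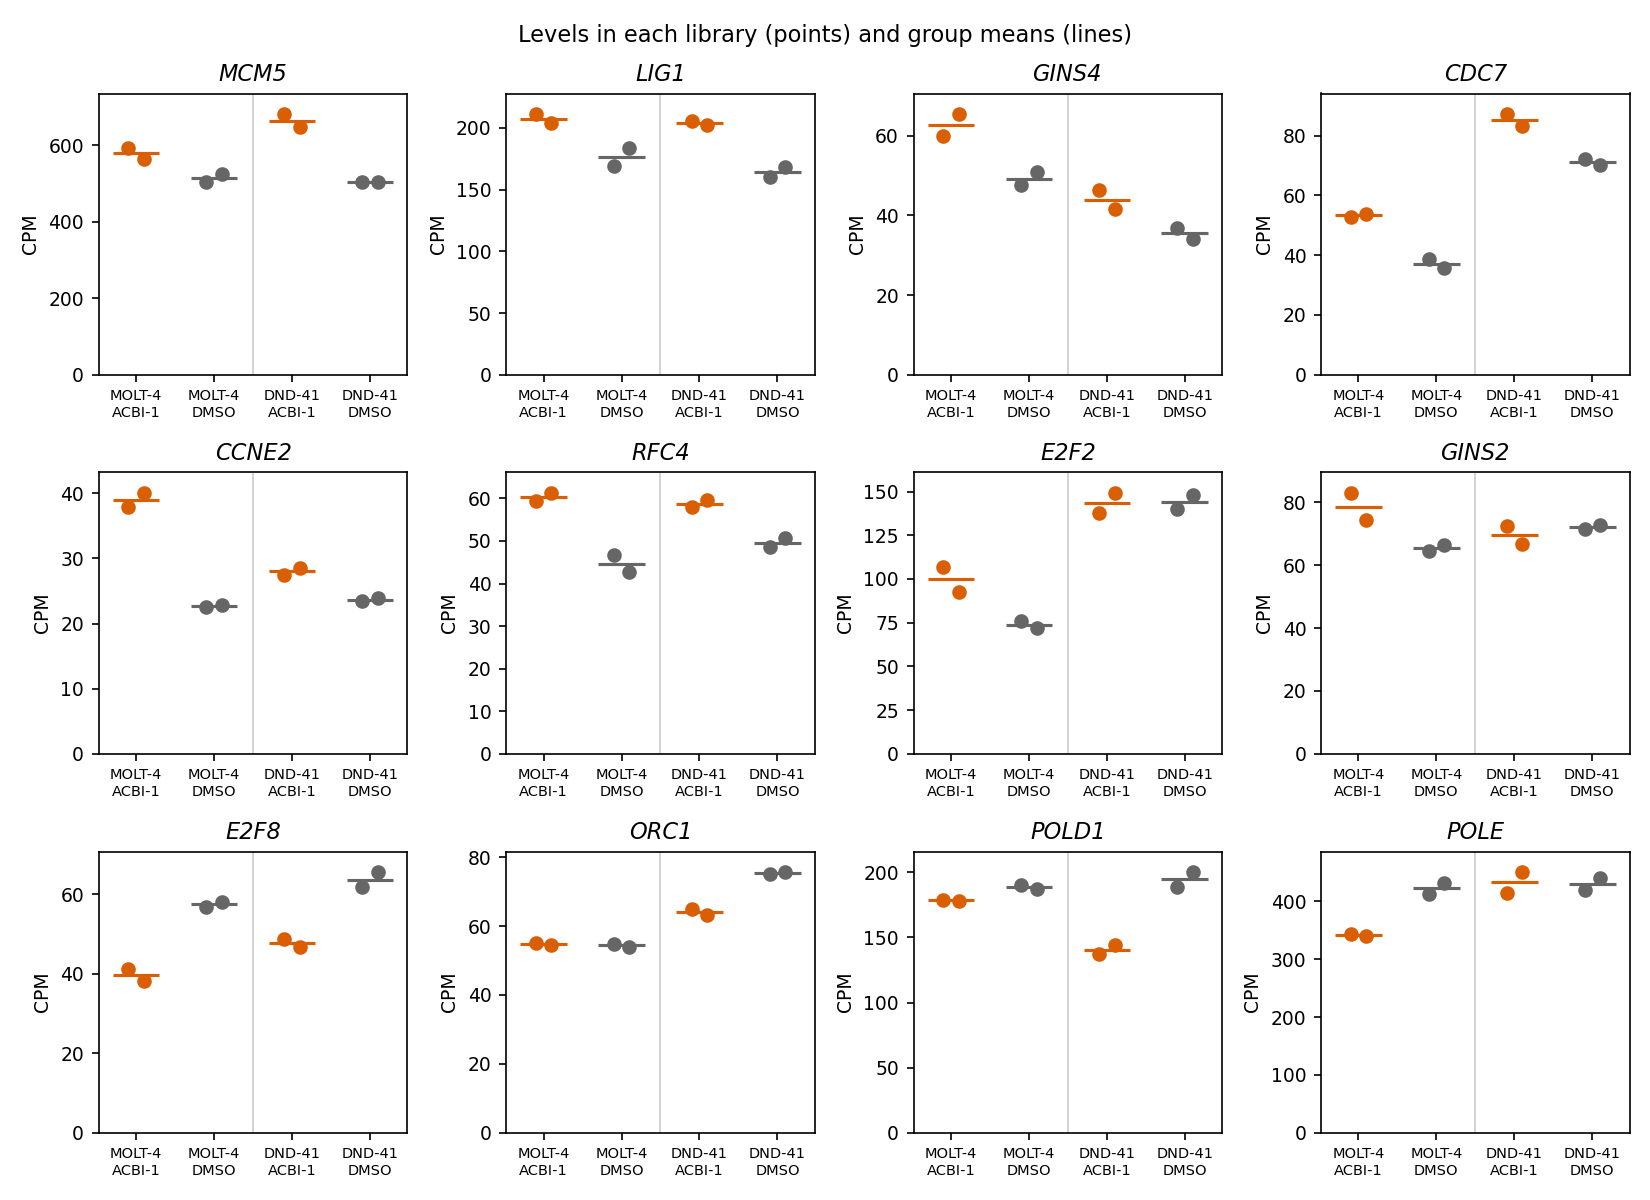
Level in CPM (vertical axes, from 0) of 12 members in each library (points) with group means (lines), for MOLT-4 and DND-41 with ACBI-1 (orange) and DMSO (grey). MCM5, LIG1, GINS4, CDC7, CCNE2 and RFC4 are higher with ACBI-1 in both lines and E2F8 is lower in both, whereas E2F2 and GINS2 are higher in MOLT-4, ORC1 and POLD1 are lower in DND-41 and POLE is lower in MOLT-4; the POLD1 libraries of MOLT-4 are close but do not overlap.

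Of the origin firing genes 7 of 7 rose in MOLT-4, where 20.7% of all genes did, and 4 of 7 (57.1%) rose in DND-41, where 20.0% did, with median log2 fold changes of 0.29 in MOLT-4 and 0.18 in DND-41. CDC7, the kinase that phosphorylates the loaded MCM ring, was at 52.9 and 53.8 CPM in MOLT-4 with ACBI-1, against 38.6 and 35.7 CPM with DMSO. Its DND-41 level was 87.1 and 83.3 CPM with ACBI-1, against 72 and 70.1 CPM with DMSO. Its libraries were separate by treatment in both lines. The log2 fold change was 0.52 ± 0.07 (edgeR adjusted p = 6.03e-06) in MOLT-4 and 0.28 ± 0.06 (edgeR adjusted p = 0.00234) in DND-41.

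GINS4 is a subunit of the 4-part GINS complex of the CMG helicase. It was at 60 and 65.4 CPM in MOLT-4 with ACBI-1, against 47.6 and 50.9 CPM with DMSO. DND-41 cells had 46.3 and 41.7 CPM with ACBI-1, against 36.9 and 34.1 CPM with DMSO. Neither line had an overlap. Its log2 fold change was 0.34 ± 0.07 (edgeR adjusted p = 0.00043) in MOLT-4 and 0.32 ± 0.08 (edgeR adjusted p = 0.00327) in DND-41, the second of which was not called without DMSO replicate 2 (0.27, edgeR adjusted p = 0.0536).

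GINS2, another GINS subunit, was at 82.9 and 74.3 CPM in MOLT-4 with ACBI-1, against 64.4 and 66.3 CPM with DMSO. The DND-41 values were 72.4 and 66.9 CPM with ACBI-1, against 71.6 and 72.9 CPM with DMSO. The MOLT-4 libraries were apart and the DND-41 libraries overlapped. Log2 fold changes were 0.26 ± 0.06 (edgeR adjusted p = 0.00243) in MOLT-4 and -0.04 ± 0.06 (edgeR adjusted p = 0.669) in DND-41. Without ACBI-1 replicate 1 the MOLT-4 call ended (0.18, edgeR adjusted p = 0.102). GSE1, on the opposite strand, overlaps GINS2 and had 70642 counts over the 8 libraries against 11474 for GINS2.

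GINS1 and GINS3 rose in MOLT-4 too, by 0.32 ± 0.07 and 0.27 ± 0.07, and were at 0.14 ± 0.06 (edgeR adjusted p = 0.0964) and 0.04 ± 0.06 (edgeR adjusted p = 0.687) in DND-41. So all 4 GINS genes rose in MOLT-4 and GINS4 rose in DND-41. The GINS3 rise was not called without ACBI-1 replicate 2 (0.19, edgeR adjusted p = 0.111), and that of GINS1 was not called without both replicate 2 libraries (0.22, edgeR adjusted p = 0.12). MCM10, which helps to activate the helicase, rose by 0.29 ± 0.06 in MOLT-4 and 0.21 ± 0.06 in DND-41. CDC45, which joins the ring as the helicase forms, rose by 0.23 ± 0.06 in MOLT-4 and 0.18 ± 0.06 in DND-41. Single DMSO libraries decided 3 of these calls: CDC45 in MOLT-4 without replicate 2 (0.16, edgeR adjusted p = 0.0521), and in DND-41 CDC45 without replicate 1 (0.15, edgeR adjusted p = 0.295) or replicate 2 (0.20, edgeR adjusted p = 0.132) and MCM10 without replicate 1 (0.20, edgeR adjusted p = 0.131) or replicate 2 (0.22, edgeR adjusted p = 0.0902).

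The catalytic subunits of polymerases delta and epsilon each fell in 1 line. POLD1, the catalytic subunit of polymerase delta, was at 179 and 178 CPM in MOLT-4 with ACBI-1, against 190 and 187 CPM with DMSO. In DND-41 it was at 137 and 144 CPM with ACBI-1, against 189 and 200 CPM with DMSO. The libraries did not overlap in either line, but the MOLT-4 gap was narrow. The log2 fold change was -0.08 ± 0.05 (edgeR adjusted p = 0.203) in MOLT-4 and -0.46 ± 0.06 (edgeR adjusted p = 2.16e-05) in DND-41.

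POLE, the catalytic subunit of polymerase epsilon, was at 344 and 340 CPM in MOLT-4 with ACBI-1, against 413 and 432 CPM with DMSO. Its DND-41 level was 415 and 450 CPM with ACBI-1, against 419 and 440 CPM with DMSO. The MOLT-4 libraries were apart and those of DND-41 overlapped. Its log2 fold change was -0.31 ± 0.06 (edgeR adjusted p = 0.000139) in MOLT-4 and 0.02 ± 0.06 (edgeR adjusted p = 0.809) in DND-41. POLA1, the catalytic subunit of polymerase alpha, and PRIM1, the small primase subunit, lay the other way: they rose in DND-41 by 0.23 ± 0.06 and 0.21 ± 0.08, and in MOLT-4 were at 0.14 ± 0.06 (edgeR adjusted p = 0.067) and 0.16 ± 0.07 (edgeR adjusted p = 0.0954).

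Those 2 DND-41 rises were also lost with 1 library left out. POLA1 was not called without DMSO replicate 1 (0.22, edgeR adjusted p = 0.105) or DMSO replicate 2 (0.24, edgeR adjusted p = 0.0646), and PRIM1 was not called without ACBI-1 replicate 2 (0.20, edgeR adjusted p = 0.0505) or DMSO replicate 2 (0.13, edgeR adjusted p = 0.426). PRIM1 lies on the same strand as the overlapping gene NACA, which had 79893 counts over the 8 libraries against 4763 for PRIM1, so its value is uncertain.

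RFC loads the PCNA clamp, and 4 of its subunit genes are members. RFC4 was at 59.3 and 61.2 CPM in MOLT-4 with ACBI-1, against 46.6 and 42.8 CPM with DMSO. DND-41 cells had 58 and 59.6 CPM with ACBI-1, against 48.5 and 50.7 CPM with DMSO. It was higher with ACBI-1 in every library of either line. Log2 fold changes were 0.43 ± 0.07 (edgeR adjusted p = 4.00e-05) in MOLT-4 and 0.26 ± 0.06 (edgeR adjusted p = 0.00486) in DND-41, and the DND-41 call ended without DMSO replicate 1 (0.22, edgeR adjusted p = 0.1). EIF4A2 overlaps RFC4 on the opposite strand, with 31393 counts against 8569.

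The other subunits moved less. RFC3 rose in MOLT-4 (0.19 ± 0.07) and was at -0.02 ± 0.08 (edgeR adjusted p = 0.837) in DND-41. RFC5 was at 0.02 ± 0.06 (edgeR adjusted p = 0.856) in MOLT-4 and rose in DND-41 (0.17 ± 0.06). The RFC3 call ended without ACBI-1 replicate 2 (0.12, edgeR adjusted p = 0.316) or DMSO replicate 2 (0.14, edgeR adjusted p = 0.123). The RFC5 call ended without ACBI-1 replicate 1 (0.15, edgeR adjusted p = 0.0528), DMSO replicate 1 (0.16, edgeR adjusted p = 0.251) or DMSO replicate 2 (0.17, edgeR adjusted p = 0.237). RFC2 was at 0.16 ± 0.06 in MOLT-4 (edgeR adjusted p = 0.0534) and 0.12 ± 0.07 in DND-41 (edgeR adjusted p = 0.172). PCNA, the clamp, was at 0.07 ± 0.06 in MOLT-4 (edgeR adjusted p = 0.317) and -0.09 ± 0.07 in DND-41 (edgeR adjusted p = 0.35), and without DND-41 ACBI-1 replicate 1 it was called lower there (-0.19, edgeR adjusted p = 0.00205).

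LIG1, the ligase that joins Okazaki fragments, was at 211 and 204 CPM in MOLT-4 with ACBI-1, against 169 and 184 CPM with DMSO. The DND-41 values were 206 and 202 CPM with ACBI-1, against 160 and 168 CPM with DMSO. No overlap was seen in either line. The log2 fold change was 0.23 ± 0.06 (edgeR adjusted p = 0.00244) in MOLT-4 and 0.33 ± 0.06 (edgeR adjusted p = 0.00035) in DND-41. FEN1, the nuclease that trims the fragments, rose in MOLT-4 (0.15 ± 0.05), a call that ended without ACBI-1 replicate 1 (0.16, edgeR adjusted p = 0.0849), ACBI-1 replicate 2 (0.13, edgeR adjusted p = 0.137) or DMSO replicate 1 (0.13, edgeR adjusted p = 0.102). In DND-41 FEN1 was at 0.11 ± 0.07 (edgeR adjusted p = 0.213) and was called without ACBI-1 replicate 2 (0.21, edgeR adjusted p = 0.00235). It shares its strand and part of its sequence span with FADS2, which had 129628 counts against 18717, so the FEN1 value is uncertain.

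Of the chromatin assembly and checkpoint genes, 1 of 3 rose in MOLT-4 and 0 of 3 were called in DND-41, where 0 passed an unadjusted p of 0.05 and DESeq2 called 0. Of all genes, 20.7% rose in MOLT-4 and 43.2% were called in DND-41, and 3 genes are too few to set against those shares. CHAF1B, a subunit of the CAF-1 histone chaperone, rose by 0.30 ± 0.06 in MOLT-4 (edgeR adjusted p = 0.000232) and was at 0.00 ± 0.06 in DND-41 (edgeR adjusted p = 0.996); it overlaps MORC3 on its own strand, which had 5327 counts against 15709. Its partner CHAF1A was at 0.10 ± 0.05 (edgeR adjusted p = 0.119) in MOLT-4 and 0.04 ± 0.06 (edgeR adjusted p = 0.602) in DND-41. CLSPN, the fork checkpoint adaptor claspin, was at 0.02 ± 0.07 (edgeR adjusted p = 0.798) in MOLT-4 and 0.10 ± 0.07 (edgeR adjusted p = 0.286) in DND-41, where it was called higher without ACBI-1 replicate 1 (0.18, edgeR adjusted p = 0.0363).

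The ACBI-1 effect itself differed between lines for 6 members, 15.8% of the 38 against 13.3% of 15498 genes tested. It was tested in edgeR as an interaction term, with the DND-41 log2 fold change subtracted from that of MOLT-4 and all 8 libraries in the fit. CCNE2 (0.53 ± 0.11, edgeR adjusted p = 0.00205), E2F2 (0.44 ± 0.10, edgeR adjusted p = 0.0044), POLD1 (0.39 ± 0.08, edgeR adjusted p = 0.00176), GINS2 (0.32 ± 0.09, edgeR adjusted p = 0.0262) and CHAF1B (0.32 ± 0.09, edgeR adjusted p = 0.02) were more positive in MOLT-4 (13.2% of members, against 7.18% of all genes). POLE was more negative there (-0.31 ± 0.08, edgeR adjusted p = 0.0157; 2.63% of members, against 6.17%). For POLD1 the difference lay between a fall in DND-41 and no call in MOLT-4, and for E2F2, GINS2 and CHAF1B between a rise in MOLT-4 and no call in DND-41. For CCNE2 both lines rose by different amounts.

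The share of members that differed was close to that of all genes, and the difference call was the least stable. Scaled by library size alone, which set the median difference of all genes at -0.12, 1 member was more positive and 2 were more negative in MOLT-4, and E2F2, POLD1, GINS2 and CHAF1B were no longer called. DESeq2 called 4 more positive and 2 more negative, but not the same 6. It did not call GINS2 (0.31, DESeq2 adjusted p = 0.0679), and it called 1 licensing gene more negative that edgeR did not call. Of the 6, the CCNE2 call held under every alternative. E2F2 was not called without MOLT-4 ACBI-1 replicate 1 (0.33). Without both MOLT-4 replicate 2 libraries, POLD1 (0.37), GINS2 (0.40), CHAF1B (0.32) and POLE (-0.30) were not called. POLE was not called without DND-41 DMSO replicate 1 (-0.28, edgeR adjusted p = 0.106), MOLT-4 ACBI-1 replicate 1 (-0.32, edgeR adjusted p = 0.0572) or MOLT-4 ACBI-1 replicate 2 (-0.31, edgeR adjusted p = 0.0698). The GINS2 call was lost without any 1 of 6 of the 8 libraries (0.24 to 0.33), which were all but DND-41 ACBI-1 replicate 1 and MOLT-4 ACBI-1 replicate 2. The CHAF1B call was lost without either DND-41 DMSO library, MOLT-4 ACBI-1 replicate 1 or MOLT-4 DMSO replicate 2 (0.25 to 0.33).

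A change called in 1 line is not shown to differ from the other line where this test gave no call. That was so for ORC1 (0.24 ± 0.08, edgeR adjusted p = 0.0564), GINS3 (0.25 ± 0.09, edgeR adjusted p = 0.0831) and E2F1 (0.22 ± 0.09, edgeR adjusted p = 0.143). Of the members that rose in both lines, MCM5 (-0.23 ± 0.08, edgeR adjusted p = 0.0809) and CDC7 (0.26 ± 0.09, edgeR adjusted p = 0.0563) rose by amounts whose difference missed the threshold.

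**Figure D3:**
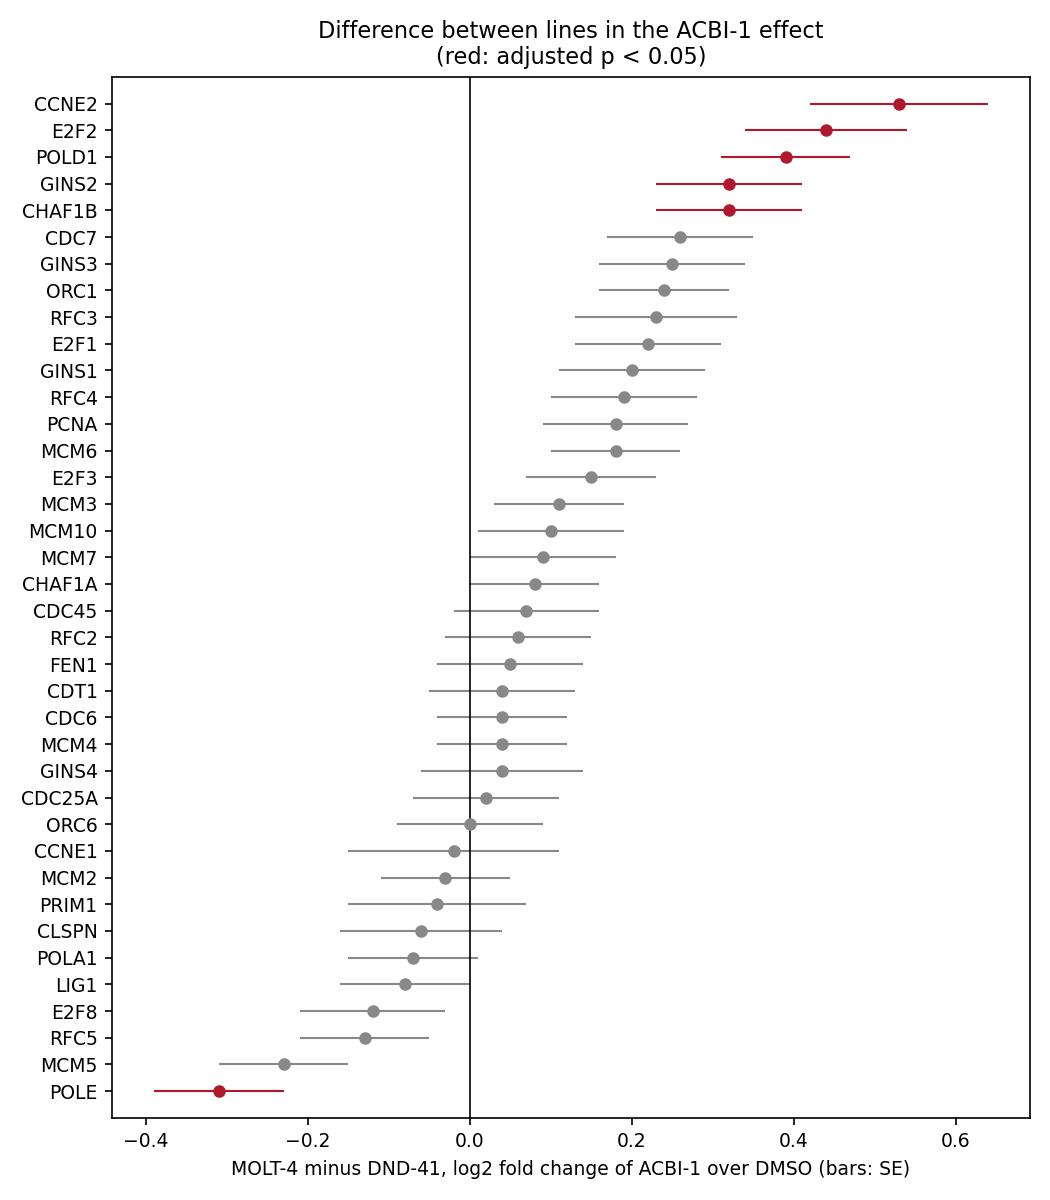
Difference between lines in the log2 fold change of ACBI-1 over DMSO (MOLT-4 minus DND-41, horizontal axis, bars of 1 SE) for the 38 members in order of size; red points passed an adjusted p of 0.05. CCNE2 at 0.53 and POLE at -0.31 stand at the ends.

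The lines also differed without the drug. With DMSO, 10 members were higher in MOLT-4 than in DND-41 (26.3%, against 34.7% of 14868 genes tested) and 13 were lower (34.2%, against 32.7%), so that 23 were called, where 67.4% of all genes were. Scaled by library size alone, 4 were higher and 17 lower, and without DND-41 DMSO replicate 2, 8 were higher and 8 lower. The edgeR test compared 2 DMSO libraries of each line. CCNE1 was at 28 and 29.3 CPM in MOLT-4 with DMSO, against 8.78 and 10 CPM in DND-41 with DMSO. RFC3 was at 48.1 and 45.1 CPM in MOLT-4, against 23.3 and 22.9 CPM in DND-41. These were the 2 members with a called difference of 2-fold or more, both higher in MOLT-4 (log2 ratios of 1.61 ± 0.09 and 1.01 ± 0.07, edgeR adjusted p = 1.36e-11 and 4.72e-10). Of all 14868 genes tested, 3842 were called at 2-fold or more.

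Lower in MOLT-4 by the most were E2F2 (log2 ratio -0.97 ± 0.05), CDC7 (-0.94 ± 0.06) and GINS3 (-0.67 ± 0.06). CDC7 was at 38.6 and 35.7 CPM in MOLT-4 with DMSO, against 72 and 70.1 CPM in DND-41 with DMSO. Every MOLT-4 library with ACBI-1, where each of these had risen, was still below every DND-41 library with DMSO for E2F2, CDC7 and GINS3. In origin firing 5 of 7 members (71.4%, against 32.7% of all genes) were lower in MOLT-4 and GINS4 was higher (0.47 ± 0.07). The calls of CDC7, GINS3 and GINS4 held under every alternative, and those of MCM10, GINS1 and GINS2 did not. CHAF1B was higher in MOLT-4 (0.67 ± 0.05).

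Levels per kilobase used lengths from GENCODE 29 by gene identifier, each the union of all annotated exons of a gene. That union can be longer than the transcript made, so ranks between genes depend on the annotation. By this measure PCNA had the highest mean level of the members with DMSO, at 271 CPM per kb in MOLT-4 and 233 CPM per kb in DND-41. MCM7 followed at 192 CPM per kb in MOLT-4 and 169 CPM per kb in DND-41, and MCM3 at 95.6 CPM per kb in MOLT-4 and 105 CPM per kb in DND-41. The lowest was CCNE2 in MOLT-4 (5.17 CPM per kb) and CCNE1 in DND-41 (3.68 CPM per kb). The 6 ring subunits, which are present in equal number in the protein complex, ran per length from 51.6 (MCM6) to 192 CPM per kb in MOLT-4 and from 57.3 (MCM4) to 169 CPM per kb in DND-41. In DND-41 with DMSO, MCM5 was above MCM3 in CPM (503 against 383) but below it per kb (68.6 against 105). The MCM5 union is longer, at 7.34 kb against 3.65 kb. Whether the ring transcripts differ in number was not tested. The GINS genes ran from 8.47 (GINS3) to 20 CPM per kb (GINS2) in MOLT-4 and from 6.48 (GINS4) to 22.1 CPM per kb (GINS2) in DND-41.

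**Figure D4:**
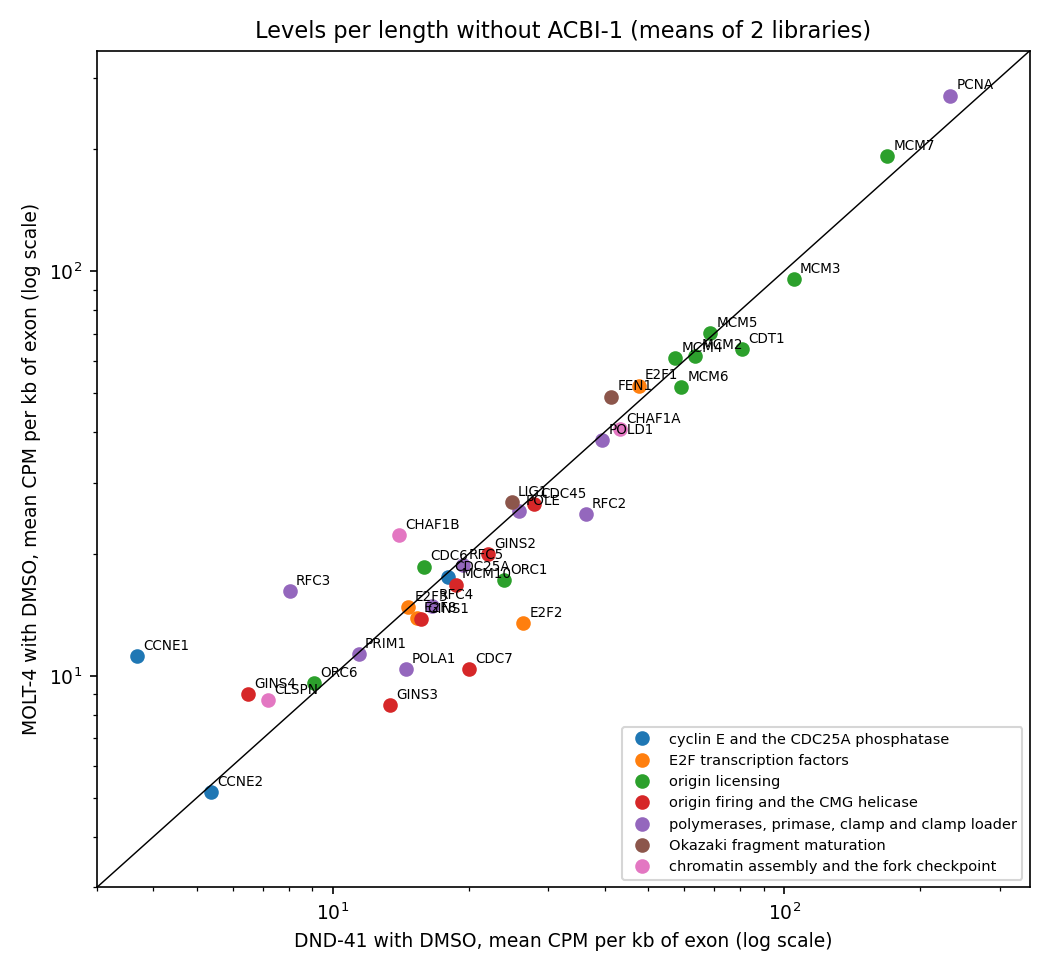
Mean level per kilobase of exon (CPM per kb, log scales) of the 38 members with DMSO in MOLT-4 (vertical) against DND-41 (horizontal), coloured by role, with the line of equal levels. PCNA and MCM7 are at the top in both lines, and CCNE1, RFC3 and CHAF1B lie above the line while E2F2, CDC7 and GINS3 lie below it.

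Other genes of the same pathway, from lists made with earlier results of these data known, also rose more often than they fell where they encode replication proteins. Of 35 replication genes outside the members, 20 rose (57.1%, against 20.7% of all genes) and 2 fell (5.71%, against 24.4%) in MOLT-4. In DND-41 14 rose (40.0%, against 20.0%) and 2 fell (5.71%, against 23.2%). Median log2 fold changes were 0.19 in MOLT-4 and 0.14 in DND-41. TIPIN, a fork protection factor, rose by 0.54 ± 0.10 in MOLT-4 and 0.83 ± 0.11 in DND-41. MCM9, a relative of the ring subunits, rose by 0.61 ± 0.08 in MOLT-4 and 0.68 ± 0.08 in DND-41. POLD3, an accessory subunit of polymerase delta, rose by 0.61 ± 0.06 in MOLT-4 and 0.59 ± 0.06 in DND-41. POLD3 was at 90.2 and 88.5 CPM in MOLT-4 with ACBI-1, against 58.1 and 58.9 CPM with DMSO. In DND-41 it was at 67.5 and 66.8 CPM with ACBI-1, against 44.5 and 45.8 CPM with DMSO, so it rose there while POLD1 fell. Falls were called for ASF1A (-0.47 ± 0.07) and MCM8 (-0.29 ± 0.07) in MOLT-4, and MCMBP (-0.24 ± 0.06) and ASF1B (-0.17 ± 0.06) in DND-41. Scaled by library size alone, 11 of this list rose in MOLT-4 and without both replicate 2 libraries 10 did; in DND-41 7 rose without DMSO replicate 1, 8 without DMSO replicate 2 and 9 with no filter. MCMBP was not called without DMSO replicate 2 (-0.22, edgeR adjusted p = 0.0806), and ASF1B without ACBI-1 replicate 2 (-0.13, edgeR adjusted p = 0.0533), DMSO replicate 1 (-0.19, edgeR adjusted p = 0.158) or DMSO replicate 2 (-0.15, edgeR adjusted p = 0.264).

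The G1/S regulators outside the members differed between lines for 8 of 24 by the interaction test, where 13.3% of all genes did. Of these 8, 6 were more positive in MOLT-4 and 2 more negative, where 7.18% and 6.17% of all genes were. In MOLT-4 12 of 24 rose, where 20.7% of all genes did, and 7 fell (29.2%, against 24.4%). In DND-41 2 of 23 tested rose (8.70%, against 20.0%) and 10 fell (43.5%, against 23.2%). MYC, a driver of G1 progression, was at 954 and 980 CPM in MOLT-4 with ACBI-1, against 789 and 801 CPM with DMSO. Its DND-41 level was 537 and 533 CPM with ACBI-1, against 722 and 732 CPM with DMSO. It rose in MOLT-4 (0.28 ± 0.06, edgeR adjusted p = 0.00156; 0.20, edgeR adjusted p = 0.111 with library size alone) and fell in DND-41 (-0.43 ± 0.06, edgeR adjusted p = 3.72e-05). CCND3, a D-type cyclin, did likewise (0.32 ± 0.07 in MOLT-4 and -0.31 ± 0.06 in DND-41). CDK6, the kinase of D-type cyclins, fell in both (-0.64 ± 0.07 in MOLT-4 and -0.86 ± 0.11 in DND-41), as did the inhibitor CDKN1A (-1.34 ± 0.29 in MOLT-4 and -0.36 ± 0.10 in DND-41), which was low in MOLT-4, at 1.48 and 0.936 CPM with ACBI-1 against 2.57 and 3.58 CPM with DMSO. DTL, which targets CDT1 for destruction in S phase, rose in both (0.50 ± 0.06 in MOLT-4 and 0.40 ± 0.06 in DND-41), and so did the pocket protein RBL2 (0.32 ± 0.05 in MOLT-4 and 0.32 ± 0.06 in DND-41).

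RB1 and the CDK inhibitor CDKN1B fell in MOLT-4 (-0.20 ± 0.06 and -0.21 ± 0.07), and in DND-41 were at 0.05 ± 0.06 (edgeR adjusted p = 0.518) and 0.00 ± 0.07 (edgeR adjusted p = 0.969). The RB1 fall was not called without ACBI-1 replicate 2 (-0.13, edgeR adjusted p = 0.162). The CDKN1B fall was not called without ACBI-1 replicate 2 (-0.17, edgeR adjusted p = 0.166) or DMSO replicate 2 (-0.16, edgeR adjusted p = 0.107). CDKN1A was not called in DND-41 without DMSO replicate 1 (-0.29, edgeR adjusted p = 0.143) or in MOLT-4 without both replicate 2 libraries (-0.80, edgeR adjusted p = 0.0981). The MOLT-4 rises of this list numbered 5 when scaled by library size alone, 5 without both replicate 2 libraries and 7 without ACBI-1 replicate 1, its MOLT-4 falls 3 without both replicate 2 libraries, and its DND-41 falls 6 without DMSO replicate 1 and its rises 5 without ACBI-1 replicate 2.

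E2F targets of S phase that are not part of the replication machinery were mixed. Of 22, 8 rose (36.4%, against 20.7% of all genes) and 3 fell (13.6%, against 24.4%) in MOLT-4. In DND-41 6 rose (27.3%, against 20.0%) and 6 fell (27.3%, against 23.2%), both near the shares of all genes. RRM2, the small subunit of ribonucleotide reductase, rose by 0.42 ± 0.05 in MOLT-4 and 0.37 ± 0.06 in DND-41, with the helicase HELLS (0.43 ± 0.07 in MOLT-4 and 0.37 ± 0.07 in DND-41) and the nuclease EXO1 (0.26 ± 0.07 in MOLT-4 and 0.39 ± 0.07 in DND-41) higher in both. Scaled by library size alone, the EXO1 rise in MOLT-4 was not called (0.18, edgeR adjusted p = 0.118). UHRF1, which guides maintenance of DNA methylation, was at 221 and 221 CPM in MOLT-4 with ACBI-1, against 350 and 374 CPM with DMSO. DND-41 cells had 97.2 and 101 CPM with ACBI-1, against 180 and 170 CPM with DMSO. Its log2 fall was larger than that of any member (-0.72 ± 0.06 in MOLT-4 and -0.80 ± 0.06 in DND-41). Thymidine kinase TK1 fell by 0.47 in each line, and CDCA7 fell in DND-41 (-0.74 ± 0.06). The rises numbered 3 in MOLT-4 with library size alone or without both replicate 2 libraries, and 3 in DND-41 without either DMSO library in turn.

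Genes of G2/M, given for comparison, fell more often than they rose. Of 20, 0 rose (against 20.7% of all genes) and 12 fell (60.0%, against 24.4%) in MOLT-4 by edgeR. There 1 was higher at an unadjusted p below 0.05 and DESeq2 called 0 higher. In DND-41 4 rose, a share of 20.0% that equals that of all genes, and 8 fell (40.0%, against 23.2%). The phosphatase CDC25B fell by 0.52 in MOLT-4 and fell by 0.54 in DND-41 on the log2 scale, and the kinase PLK1 fell by 0.38 in MOLT-4 and fell by 0.37 in DND-41. CCNB2, a B-type cyclin, fell too (-0.45 ± 0.05 in MOLT-4 and -0.31 ± 0.08 in DND-41). BUB1, a spindle checkpoint kinase, rose in DND-41 (0.52 ± 0.06) and was at 0.12 ± 0.05 (edgeR adjusted p = 0.0633) in MOLT-4. CDC25C rose in DND-41 (0.30 ± 0.11), a call lost without ACBI-1 replicate 1 (0.15, edgeR adjusted p = 0.334), DMSO replicate 1 (0.30, edgeR adjusted p = 0.106) or DMSO replicate 2 (0.30, edgeR adjusted p = 0.111). With either DMSO library left out, 1 of the 20 rose in DND-41, and 4 fell without DMSO replicate 1.

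**Figure D5:**
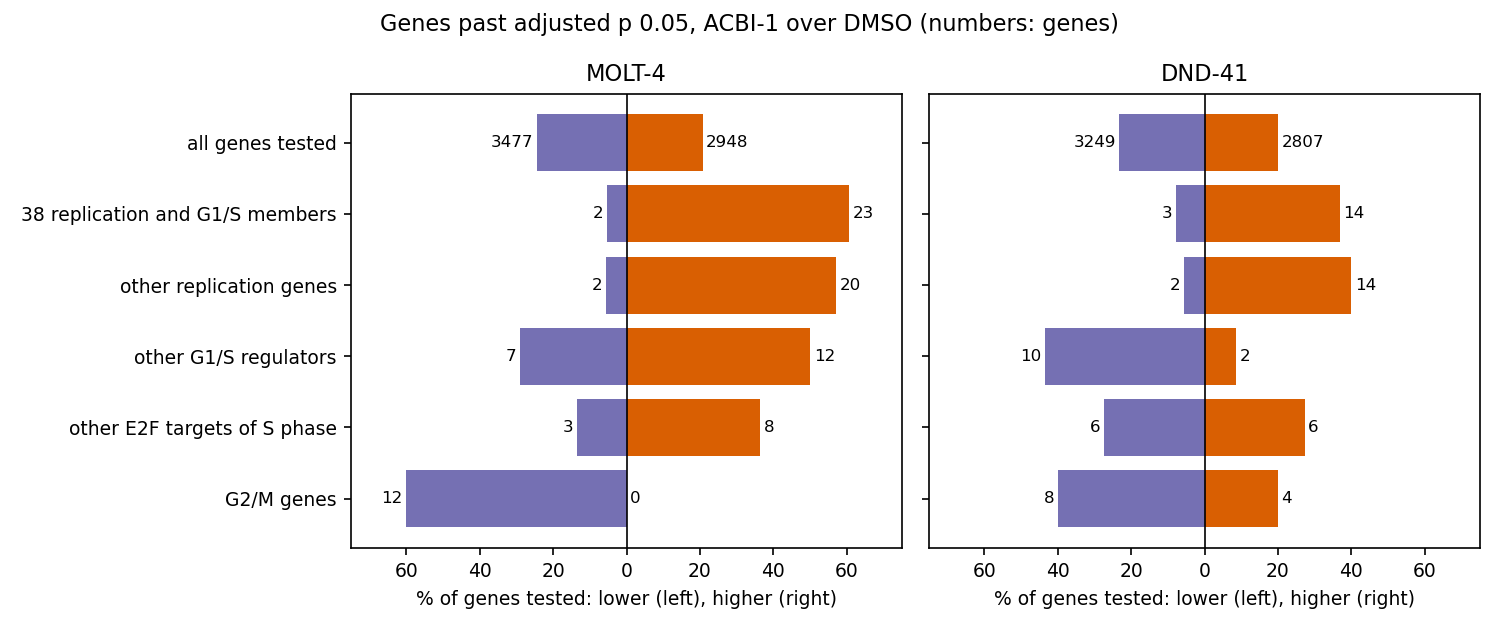
Share of genes tested that passed an adjusted p of 0.05, lower (purple, left) and higher (orange, right) with ACBI-1, in MOLT-4 and DND-41, for all genes, the 38 members and 4 other lists; numbers are genes. The members and the other replication genes lean right in both lines, while the G2/M genes lean left.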

How the data were processed

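The authors deposited unnormalized whole-number read counts per gene. Per the submitters' processing notes, STAR 2.5.2a, featureCounts and DESeq2 1.12.4 were used with the hg19 build, in an order the notes do not give; annotation and strand setting were not given in the sources used here. Libraries were strand-specific with paired 100-base reads, per the labels' protocols. Per the file headers, the authors' deposited comparison tables hold log2 fold changes, p-values and adjusted p-values; they served only as a check.

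The count tables were joined by identifier. Within each line genes were kept by filterByExpr (minimum count 10), scaled by TMM and tested with edgeR 4.0.16 (R 4.3.3, limma 3.58.1) by quasi-likelihood F tests over all genes, with Benjamini-Hochberg adjustment at 0.05. SE is the absolute log2 fold change over the square root of F. The line difference was an interaction over all 8 libraries. DESeq2 1.42.0 was an alternative, with other scalings, no filter, a replicate block, 1 fit of all libraries and leaving out each library; the removal of both MOLT-4 replicate 2 libraries, fitted jointly with DND-41 so that the lone libraries were assumed to vary like the others, was added after the values were seen. The fits were tested on simulated counts. Tables used Python 3.11.15, numpy 2.4.6 and pandas 2.3.3, and figures matplotlib 3.10.9. A floor of 3 counts covers counting error only.

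The members and lists were chosen with earlier results of these data known. All members could be named; in full were given the 4 largest called rises and falls per line and the 4 largest line differences. From each other list came the 2 largest called rises and falls per line, plus MYC, CDKN1B, RB1 and CCND3. RefSeq and GENCODE coordinates are GRCh38 and were matched by symbol or identifier only. GENCODE 29 places other genes over 16 of the 38 members.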

Additional observations from a re-analysis of the deposited data

Results flagged for a closer look

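These results were picked out because the ACBI-1 effect differed between lines by edgeR's interaction test, given as MOLT-4 minus DND-41 on the log2 scale. Members were CCNE2 (0.53), E2F2 (0.44), POLD1 (0.39), GINS2 (0.32), CHAF1B (0.32) and POLE (-0.31). Among other named genes, MYC differed by 0.72 and CCND3 by 0.65, with opposite calls in the lines. CDCA7 differed by 0.67 and MCMBP by 0.35. CDKN1A differed by -0.96, BUB1 by -0.38, MCM8 by -0.35 and ASF1A by -0.29. The ASF1A difference was lost without any 1 of 7 of the 8 libraries, that of MCM8 without DND-41 DMSO replicate 1 (-0.31) or MOLT-4 ACBI-1 replicate 2 (-0.29), and that of CDKN1A without DND-41 DMSO replicate 2 (-0.89), MOLT-4 ACBI-1 replicate 2 (-0.68) or MOLT-4 DMSO replicate 2 (-0.72). Without both MOLT-4 replicate 2 libraries the CDKN1A difference was -0.44 (edgeR adjusted p = 0.582), and DESeq2 did not call it (-0.98, DESeq2 adjusted p = 0.0508). That of MCMBP was not called when libraries were scaled by size alone (0.23, edgeR adjusted p = 0.143) or without both MOLT-4 replicate 2 libraries (0.34, edgeR adjusted p = 0.0798). Without both of them, ASF1A (-0.28, edgeR adjusted p = 0.234) and MCM8 (-0.35, edgeR adjusted p = 0.0906) were not called either, and ASF1A was also lost with DESeq2 and with no filter. With groups of 2 libraries, none was examined for a library far from its group.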

How the results depend on the processing

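Without both MOLT-4 replicate 2 libraries, 3638 of all genes, 13 members (11 higher) and 2 line differences were called. With library size alone, 11 members (9 higher) in MOLT-4 and 3 line differences were called, and DESeq2 called 9 members higher in DND-41. Leaving out each library gave 8 to 21 members called in DND-41, 6 to 18 higher and 2 to 5 lower, and 3 to 10 line differences; the cause was not tested. No called member changed sign under any alternative. Values that crossed or reached 0 were not called. In DND-41, leave-one-out ranges were -0.05 to 0.07 (MCM6), -0.07 to 0.12 (E2F1), -0.06 to 0.07 (E2F2), -0.10 to 0.01 (GINS2), 0.00 to 0.07 (GINS3), -0.04 to 0.08 (POLE), -0.04 to 0.04 (CHAF1B), -0.09 to 0.09 (CDKN1B) and 0.00 to 0.10 (RB1). In MOLT-4 they were -0.06 to 0.01 (MCM7), 0.00 to 0.02 (ORC1), 0.00 to 0.04 (RFC5), -0.10 to 0.03 (ASF1B), -0.16 to 0.00 (CDCA7) and -0.25 to 0.07 (CDC25C). With all 8 libraries in 1 fit, DND-41 values were 0.00 (MCM6), -0.01 (E2F2) and -0.01 (CDKN1B), and with no filter 0.00 (E2F2) and -0.01 (CDKN1B). With library size alone, CHAF1B was at 0.02 in DND-41, and in MOLT-4 PCNA and ORC6 were at -0.01, ORC1 at -0.07, RFC5 at -0.06 and CLSPN at -0.05. ORC1 was at 0.00 without both replicate 2 libraries. With a replicate block, 27 members were called in MOLT-4, 20 in DND-41, 9 for the line difference and 22 between DMSO groups, and 6920 and 6876 of all genes in MOLT-4 and DND-41; the deviations of same-numbered libraries from their group means had an r of 0.205 in MOLT-4 and 0.093 in DND-41 (2 pairs each). The labels do not say what a number stands for, and in MOLT-4 the 2 replicate 2 libraries shared a higher COL1A1 level, so whether the numbers pair the libraries was not settled. CCNE1 in DND-41 had the fewest counts of the members, 185 to 227 a library, and the largest SE in either line, 0.12; what deeper libraries would call was not tested. Groups of 2 leave the spread to be borrowed from other genes.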

Other observations

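The authors' deposited tables gave for DND-41 the same sign as ACBI-1 over DMSO for all 38 members and for MOLT-4 the opposite sign for all 38; the headers do not state the direction. At an adjusted p below 0.05 in the authors' deposited tables, 20 members passed in MOLT-4, of which 18 were higher and 2 lower with ACBI-1 by the counts. In DND-41 11 passed in the authors' deposited table, 9 higher and 2 lower.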
